A study of Homo sapiens with 11 samples.

Results

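The 54 genes described here encode RAB GTPases, the largest branch of the RAS superfamily and the switches that give each step of vesicle traffic its address. They were taken by name from the 20037 protein-coding genes of the GRCh38.p14 RefSeq table. No measured value entered the rule, but earlier results of these data were known when the family was chosen. For each gene, a window was drawn from 20 kb before to 20 kb after the gene span, and a peak belonged to the gene when its summit lay in that window. Of the 54, 51 had an acetylated histone peak in both control libraries and were set against the 16081 other protein-coding genes of which the same held.

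A RAB protein is anchored in a membrane by prenyl groups at its C-terminal end and cycles between a form bound to GTP and a form bound to GDP. Exchange factors load GTP at the right membrane, GTPase-activating proteins end the signal, and the loaded RAB recruits motors, tethers and other effectors that move, dock or fuse the vesicle. In gland cells such as those of the exocrine pancreas, RAB3 and RAB27 proteins sit on secretory granules, RAB1 and RAB2 serve traffic between the endoplasmic reticulum and the Golgi, RAB5 marks early endosomes, RAB11 and RAB25 recycling endosomes, and RAB7 late endosomes.

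Chromatin immunoprecipitation followed by sequencing mapped MYRF, FOS and H3K27ac in human pancreatic ductal adenocarcinoma lines. MYRF, a transcription factor that starts out anchored in the endoplasmic reticulum membrane and frees its DNA-binding part by cleaving itself, was precipitated with an antibody made by the submitters from the original CFPAC1 and HPAF2 lines, grown in different media (IMDM or RPMI, each with serum). FOS, which forms AP-1 together with a JUN partner, and H3K27ac, an acetyl mark that histone H3 carries on lysine 27 at active promoters and enhancers, were mapped in CFPAC1 cells that had been infected with the lentiCRISPRv2 plasmid and cloned by dilution. H3K27ac was mapped in such a control clone, labelled MYRFWT, and also in MYRFKO, a clone that carried wild-type Cas9 and a guide against MYRF. The labels do not say whether each name covers 1 clone or more or whether FOS came from the clone used for H3K27ac, and they name no second knockout, so the loss of MYRF and differences between clones cannot be told apart.

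Each of the 5 groups had 2 libraries, and nothing in the labels says that these came from separate cultures, so the spread between them may be technical. The lists held 3702 to 4743 MYRF peaks, 29087 and 36349 FOS peaks, and 107586 to 116466 H3K27ac peaks, but no read counts, so the depth is unknown. H3K27ac peaks covered 100.5 and 95.2 Mb in MYRFWT and 87.9 and 92.9 Mb in MYRFKO. The windows of 7 genes that mark ductal epithelium (EPCAM, CDH1, KRT7, KRT8, KRT18, KRT19 and MUC1) held 6 to 36 H3K27ac peaks in every library, while those of the liver gene ALB and the acinar gene PRSS1 held 0, COL1A2 held 0 to 2, and those of PTPRC, PECAM1, COL1A1 and INS held 4 to 26. The H3K27ac at the MYRF gene itself (11.04 and 16.3 kb covered in MYRFWT, 11.3 and 13.8 kb in MYRFKO) does not check the knockout, since a small deletion or insertion in the gene need not alter it.

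RefSeq start windows, from 250 bases before to 50 after a listed start, were at hand for 44 of the 54 genes, in 64 windows. They are printed 5′ to 3′ on the gene's strand for some of the starts where transcription factor peaks or acetylation set a member apart. RAB13 (a tight junction RAB; chr1:153985344-153985643, minus strand), RAB34 (a RAB of lysosome positioning and cilium formation; chr17:28718219-28718518, minus strand) and RAB17 (a RAB of polarised epithelial recycling; chr2:237590685-237590984, minus strand) had FOS at the start in both libraries. The second listed start of RAB27B (a secretory granule RAB; chr18:54828227-54828526, plus strand) had FOS in replicate 2. RAB1B (a RAB of export from the endoplasmic reticulum; chr11:66268389-66268688, plus strand) was the only one of the 44 with a MYRF peak at a listed start, and RAB3B (a RAB of regulated exocytosis; chr1:51990651-51990950, minus strand) had acetylation there in both MYRFKO libraries and neither MYRFWT library. Capitals mark matches to TGANTCA, the AP-1 site, or to CTGGCAC, a core form of the MYRF motif. Not printed are RAB30, which had FOS at a start in both libraries but no TGANTCA, and RAB5B, with FOS over TGANTCA in replicate 1.
RAB13: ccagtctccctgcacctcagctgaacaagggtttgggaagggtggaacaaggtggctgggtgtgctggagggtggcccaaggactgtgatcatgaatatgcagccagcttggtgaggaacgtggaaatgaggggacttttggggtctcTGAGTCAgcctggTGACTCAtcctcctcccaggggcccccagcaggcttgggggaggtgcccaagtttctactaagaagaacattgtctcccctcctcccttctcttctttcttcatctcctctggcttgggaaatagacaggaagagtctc
RAB34: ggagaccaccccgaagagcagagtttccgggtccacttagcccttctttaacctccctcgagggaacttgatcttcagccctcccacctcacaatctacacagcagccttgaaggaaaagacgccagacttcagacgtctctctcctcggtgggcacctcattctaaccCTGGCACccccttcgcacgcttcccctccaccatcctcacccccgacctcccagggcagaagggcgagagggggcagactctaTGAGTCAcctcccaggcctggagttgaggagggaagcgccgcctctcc
RAB17: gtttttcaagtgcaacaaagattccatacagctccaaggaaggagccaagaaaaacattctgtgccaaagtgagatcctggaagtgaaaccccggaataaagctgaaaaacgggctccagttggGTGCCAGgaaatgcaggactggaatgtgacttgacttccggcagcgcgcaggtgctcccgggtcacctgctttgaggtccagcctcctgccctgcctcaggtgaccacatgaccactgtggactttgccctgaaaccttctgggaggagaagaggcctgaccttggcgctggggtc
RAB27B: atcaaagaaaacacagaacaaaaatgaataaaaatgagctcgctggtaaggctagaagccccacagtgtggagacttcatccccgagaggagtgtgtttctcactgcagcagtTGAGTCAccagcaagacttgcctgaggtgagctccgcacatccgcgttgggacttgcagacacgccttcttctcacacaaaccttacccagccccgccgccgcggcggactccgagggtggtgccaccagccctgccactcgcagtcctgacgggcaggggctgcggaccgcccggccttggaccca
RAB1B: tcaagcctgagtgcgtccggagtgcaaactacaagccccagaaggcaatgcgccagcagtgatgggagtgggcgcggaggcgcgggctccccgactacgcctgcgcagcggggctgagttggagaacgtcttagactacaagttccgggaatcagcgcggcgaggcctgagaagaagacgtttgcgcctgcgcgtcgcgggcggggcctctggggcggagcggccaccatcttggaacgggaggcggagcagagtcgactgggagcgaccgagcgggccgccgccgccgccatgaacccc
RAB3B: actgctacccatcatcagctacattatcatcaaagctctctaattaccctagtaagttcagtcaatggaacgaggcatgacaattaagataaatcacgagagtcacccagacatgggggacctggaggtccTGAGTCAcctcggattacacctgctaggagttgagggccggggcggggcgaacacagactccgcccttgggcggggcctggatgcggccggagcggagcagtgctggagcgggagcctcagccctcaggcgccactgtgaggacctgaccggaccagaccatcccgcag

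In the printed windows RAB13 held a pair of AP-1 sites, the first beginning 102 and the second 89 bases before the start, and both lay under the FOS peaks of both libraries. RAB34 held CTGGCAC 81 bases before its start and an AP-1 site 2 bases after it, again under FOS peaks of both libraries. RAB27B held an AP-1 site 137 bases before its second start, under the FOS peak of replicate 2, whereas the site of RAB3B, 119 bases before the start, lay under no FOS peak. RAB17 held CTGGCAC on the opposite strand, printed as GTGCCAG, 126 bases before the start, and RAB1B held neither motif.

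Across all 64 windows, TGANTCA on either strand was present in 8 (12.5%), in RAB3B, RAB5B, RAB13, RAB27A, RAB27B and RAB34, against 6.14% of the 22135 windows of other genes. CTGGCAC was present in 5 (7.81%), in RAB17, RAB34, RAB35 and RAB43, against 5.49%, and its sister form CTGGTAC in 0 against 1.65%. No CTGGCAC in these windows lay under a MYRF peak of any library. CACGTG, the E-box, was in 9.38% and 8.34% of windows, TGACGTG, a core shared by response elements of the unfolded protein response, in 3.12% and 2.12%, and CCAAT in 29.7% and 34.7%. Every motif was searched on both strands, none contains another, and overlapping windows of RAB34, and of RAB5B for CCAAT, count the same match again. A match describes the letters only.

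MYRF peaks lay near few RAB genes. A MYRF summit was found in both CFPAC1 libraries at 6 of 51 acetylated members (11.8%), against 14.2% of other genes, and in both HPAF2 libraries at 9 of 51 (17.6%), against 13.1%. All 4 MYRF libraries had a summit at 6 members (11.8%), against 7.74% of other genes. These shares were close to the background, and the windows of the members were somewhat longer, with a median of 74.6 kb against 68.4 kb. Windows widened to 50 kb on each side raised the counts to 15 of 52 in CFPAC1 (28.8%, against 21.2% of other genes) and to 22 of 52 in HPAF2 (42.3%, against 20%). With a −log10 q of at least 10 the count was 2 of 50 in either line, against 6.11% and 6.3% of other genes, and CFPAC1 replicate 1 alone gave 11 of 51 (21.6%), against 19.8% of other genes. No test of these differences was made.

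By role, regulated secretion held 4 of the 6, RAB3B, RAB26, RAB27B and RAB37, among its 8 genes; delivery to the plasma membrane held RAB13 among 7, and early endosomes RAB5C among 8. The windows of the secretion genes were long, with a median of 116.2 kb against 68.4 kb for other genes. None of the 10 Golgi, 8 recycling and 4 cilium or less studied genes had MYRF in both libraries of a line. HPAF2 alone added RAB20 and RAB31, of early endosomes, and RAB38, a RAB of melanosomes. No MYRF summit appeared in any library at 36 of the 54 genes. Of the acetylated members, 74.5% had no summit in either CFPAC1 library, against 76.4% of other genes. In HPAF2 these shares were 74.5% and 78.5%.

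**Figure D1:**
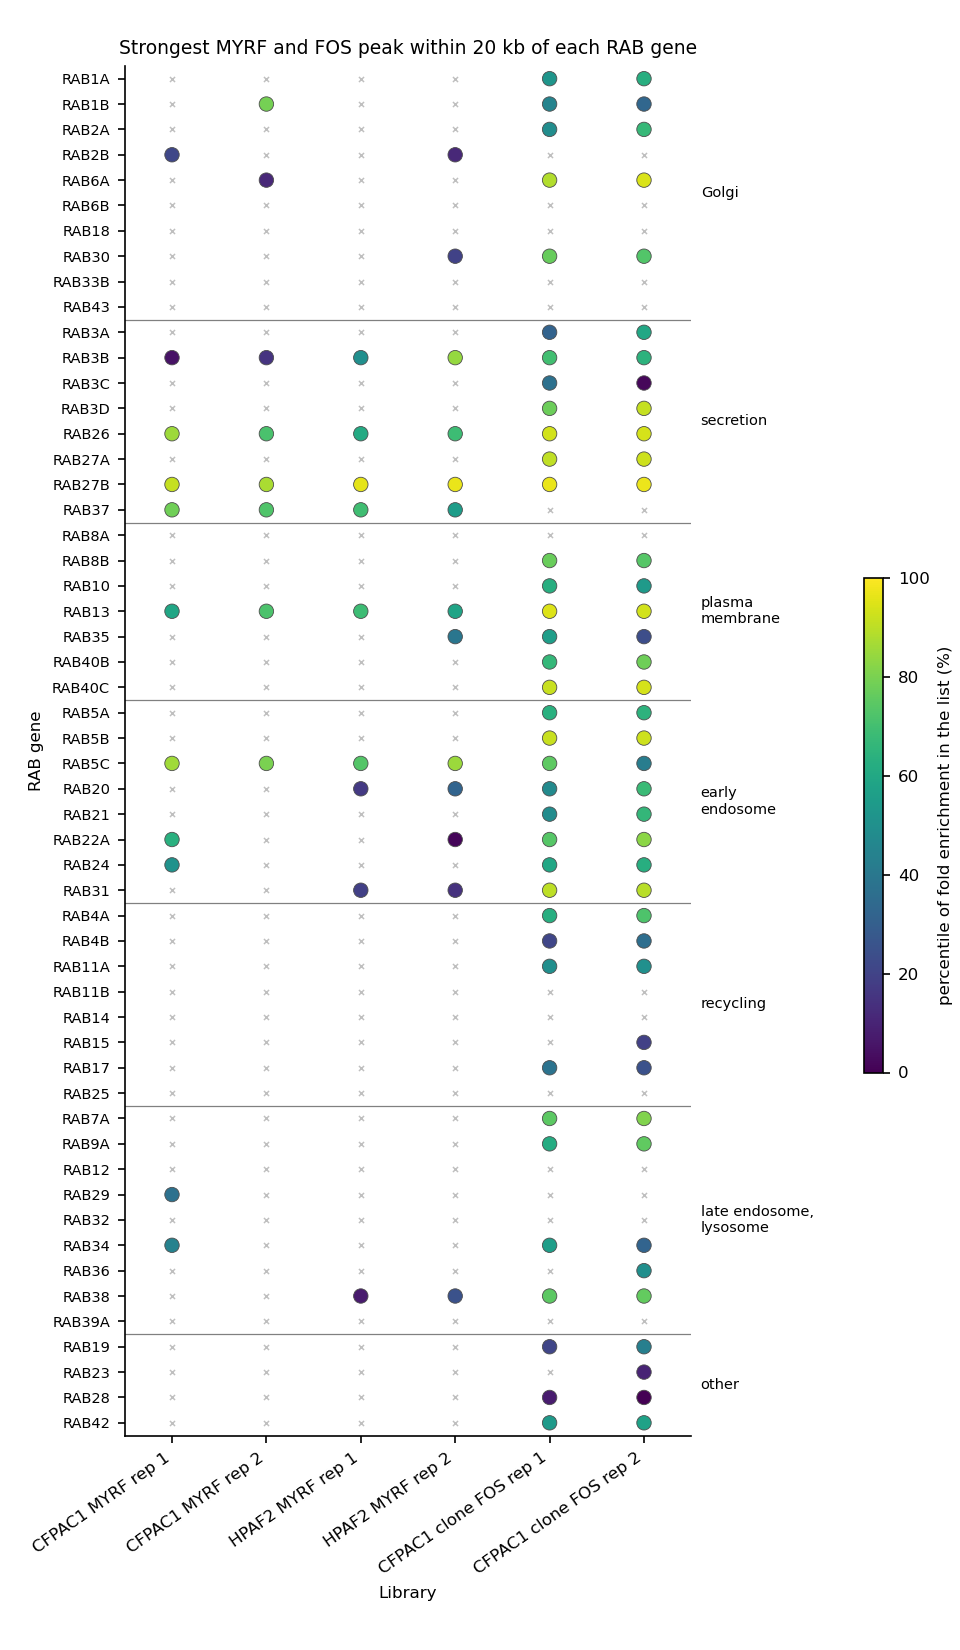
Strongest MYRF and FOS peak in the 20 kb window of each of the 54 RAB genes (rows, by role) in each library (columns). Colour gives the percentile of the peak's fold enrichment among all peaks of its list, a cross means no summit; MYRF points fill all 4 libraries at 6 genes, while FOS points fill both libraries at 37.

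RAB27B, which docks secretory granules at the plasma membrane, had the strongest MYRF site of the set. The site lay inside the gene, 49469 bp after the first listed start (chromosome 18, 54767023 to 54767628). No H3K27ac peak lay over that first start in any library, and the nearest was 4038 to 4897 bp away. The second listed start, 110.62 kb after the first, had H3K27ac in all 4 libraries. The fold enrichment of the MYRF site, the authors' ratio over local background, reached 19.0 and 22.1 in HPAF2, and 11.5 and 9.89 in CFPAC1. Within each list this put the peak at the 91.4th and 87.3rd percentile in CFPAC1 and at the 96.1st and 96.8th in HPAF2. Here the percentile is the rank of the fold, counted from the lowest, as a percentage of all peaks in the list. Tied folds share their mean rank. All 4 libraries therefore placed the site among their upper peaks.

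FOS overlapped the RAB27B site in both libraries, at folds of 4.28 and 6.33, well under the strongest FOS peak of the same gene. The MYRF summit lay in a gap of 285 and 320 bp between H3K27ac peaks in MYRFWT and of 275 and 329 bp in MYRFKO, so acetylation flanked it in every library. Within 1 kb of the summit, H3K27ac peaks covered 1715 and 1680 bp in MYRFWT and 1725 and 1671 bp in MYRFKO, and within 2.5 kb 3992 and 3437 bp against 3600 and 3689 bp. The clones overlapped on both measures. The upstream flank was written as 1 peak in each MYRFWT library and as 2 in each MYRFKO library. H3K27ac peaks that overlapped the site were shorter in both MYRFKO libraries. The same held at 33.8% of the 1095 sites across the genome with MYRF in all 4 MYRF libraries and H3K27ac in all 4 libraries. The highest H3K27ac fold within 2.5 kb was 20.1 and 17.5 in MYRFWT and 16.1 and 15.1 in MYRFKO. Within their lists these peaks stood at the 97.9th and 93.8th percentile in MYRFWT and the 92.7th and 93.4th in MYRFKO. A second MYRF site 47999 bp after the start was listed only in HPAF2, at folds of 3.34 and 5.05.

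**Figure D2:**
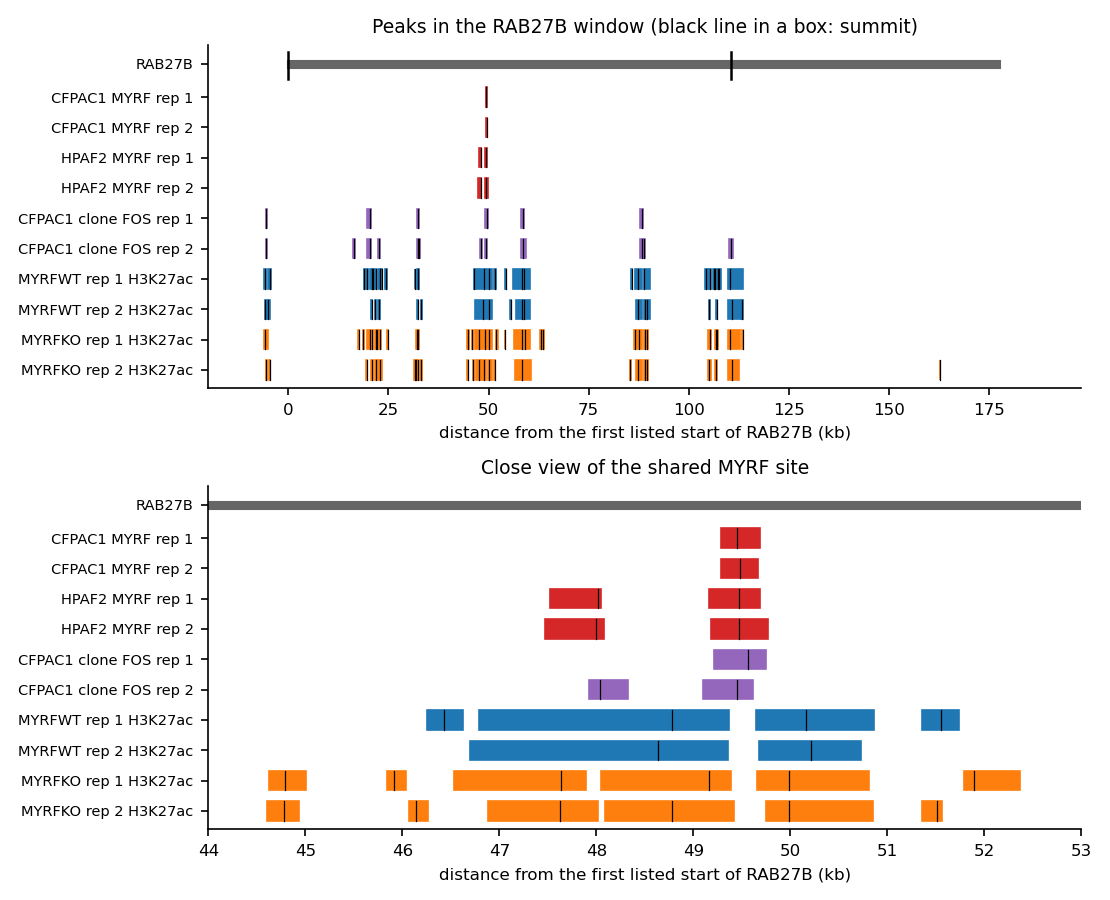
Peaks in the RAB27B window by distance from its first listed start (kb), 1 row per library, boxes for peaks and black lines for summits, with a close view below. MYRF boxes of all 4 libraries stack 49469 bp after the start, between 2 flanks of H3K27ac that are present in both clones, and FOS boxes lie there and at 5 or more other places.

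RAB26 acts in granule maturation and in autophagy of synaptic vesicles. Its MYRF site lay outside the gene span, 9219 bp from its nearer end and 7602 bp from TRAF7 (chromosome 16, 2163181 to 2163793), with CFPAC1 folds of 8.71 and 6.58 and HPAF2 folds of 5.95 and 6.72. The same place carried the strongest FOS peak of the window, and the summit was inside an H3K27ac peak in all 4 libraries. H3K27ac covered 1827 and 1809 bp within 1 kb in MYRFWT and 1853 and 1783 bp in MYRFKO, so the clones overlapped.

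RAB37, a RAB of mast cell and insulin granules, had a site of another kind. Its MYRF peak inside the gene span, 2384 bp from an end of CD300LF (chromosome 17, 74715129 to 74715495), had folds of 7.28 and 4.74 in CFPAC1 and 6.61 and 5.66 in HPAF2, yet no FOS peak and no H3K27ac peak overlapped it in any library. Of the 1282 MYRF sites found in all 4 libraries across the genome, 28 (2.18%) lacked both, 85.4% had H3K27ac in all 4 libraries and 73.7% had FOS in both. The nearest H3K27ac peak to the RAB37 summit was 598 bp away in MYRFWT replicate 1 and 21478 bp or more away in the other libraries. A second RAB37 site (74730598 to 74731050) was listed only in CFPAC1, at folds of 5.53 and 6.71, and likewise had neither FOS nor H3K27ac.

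RAB3B had MYRF at different places in the 2 lines. In CFPAC1 the peak lay 16884 bp after the start (chromosome 1, 51973657 to 51973965) at folds of 3.26 and 3.98, near the bottom of both lists at the 4.75th and 14.9th percentile, with FOS in both libraries. In HPAF2 it lay 33914 bp after the start (51956672 to 51956972) at folds of 5.32 and 9.19, with no FOS. Neither site was overlapped by an H3K27ac peak. RAB3B thus counts among the 6 genes with MYRF in all libraries although no single site was shared.

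RAB13 guides tight junction proteins to the cell border. Its shared MYRF site lay 18702 bp from the gene and 3838 bp from SLC39A1 (chromosome 1, 153962699 to 153963181), with folds of 6.58 and 5.88 in HPAF2 and of 5.57 and 6.61 in CFPAC1. The same peak falls in the window of DENND4B, an exchange factor gene for RAB10, so it belongs to neither gene alone. FOS overlapped it in both libraries and H3K27ac covered the full 2000 bp around the summit in each library except MYRFKO replicate 2, where it covered 1895 bp. A further site beside RPS27 appeared in 1 library of each line, at folds of 4.75 and 4.62.

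RAB5C drives fusion of early endosomes. Its MYRF site lay inside the gene, 10887 bp from the nearer end (chromosome 17, 42135674 to 42136089), at folds of 8.83 and 7.83 in CFPAC1 and 7.05 and 9.44 in HPAF2. FOS was present in both libraries. H3K27ac covered 2000 bp within 1 kb in both MYRFWT libraries, and 1922 and 2000 bp in MYRFKO.

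At the 3 members with MYRF in HPAF2 alone, the sites were weak and lay inside the genes. RAB20, a RAB of phagosomes and endosomes, had folds of 4.01 and 4.62, RAB31, which carries cargo from the Golgi to endosomes, 4.07 and 3.96, and RAB38 3.51 and 4.36. The RAB31 site coincided with the strongest FOS peak of that gene in CFPAC1. No HPAF2 list of FOS or H3K27ac was analysed here, so the chromatin at HPAF2 sites was read in CFPAC1 only.

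Sites of single libraries had folds of at most 5.20, at RAB24, apart from that of RAB1B. The RAB22A site was listed in 1 library of each line, at a fold of 5.76 in CFPAC1 replicate 1. RAB1B had a MYRF peak in CFPAC1 replicate 2 alone (chromosome 11, 66268469 to 66268772), at a fold of 7.68 and the 79.2nd percentile, with its summit 33 bp before the start printed above. The start window of KLC2-AS2, on the opposite strand, lies in the same stretch, so the peak cannot be given to 1 of the pair. The RAB1B start had H3K27ac in all 4 libraries, at start folds of 16.7 and 21.5 in MYRFWT and 17.0 and 16.4 in MYRFKO. The other members with MYRF summits that never filled both libraries of a line were RAB2B, RAB6A, RAB22A, RAB24, RAB29, RAB30, RAB34 and RAB35.

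**Figure D3:**
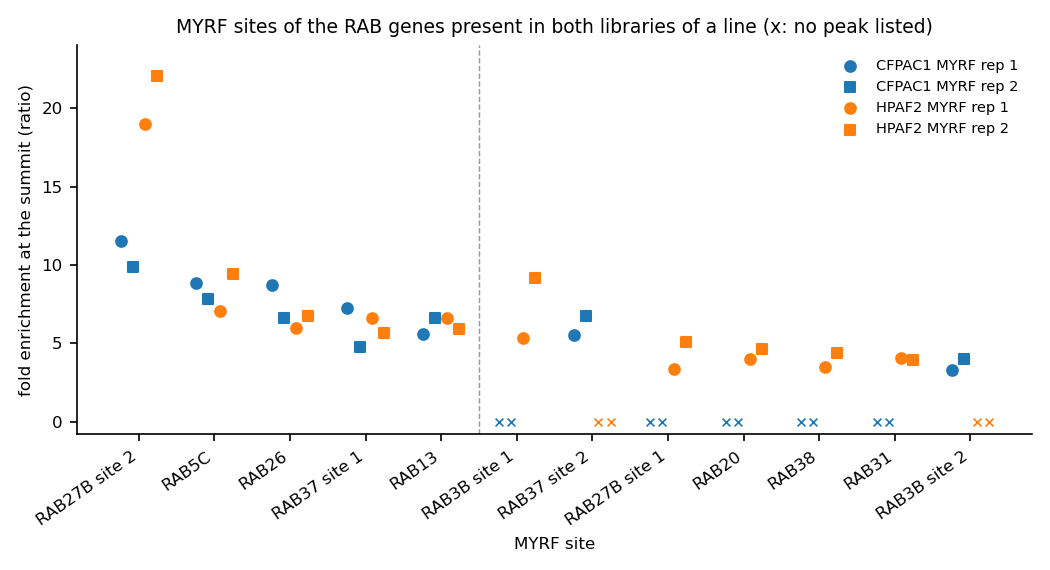
Fold enrichment at the MYRF sites of RAB genes that were present in both libraries of a line, 1 point per library, crosses where no peak was listed. Left of the dashed line are the 5 sites present in all 4 libraries, of which RAB27B stands highest at 9.89 to 22.1; right of it are sites of 1 line, at 3.26 to 9.19.

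Among members with a MYRF summit in both libraries, the median of the lower of the 2 percentiles was 71.9 for 6 members in CFPAC1, against 56.9 for the 2290 other genes. In HPAF2 it was 55.1 for 9 members against 54.4 for 2100 other genes. These medians describe the genes that had peaks and were not tested.

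FOS was far more widespread. A FOS summit was present in both libraries at 36 of 51 acetylated members (70.6%), against 62.6% of other genes, and at 37 of all 54. All 8 early endosome genes had FOS, as did 6 of the 7 acetylated secretion genes and 6 of 7 genes of plasma membrane delivery, against 5 of 10 Golgi genes and 4 of 8 recycling genes. No FOS summit in either library was found at 14 members: RAB2B, RAB6B, RAB18, RAB33B and RAB43 of the Golgi, RAB37, RAB8A, the recycling genes RAB11B, RAB14 and RAB25, and RAB12, RAB29, RAB32 and RAB39A of late endosomes and lysosomes. The median of the lower percentile was 62.2 for the 36 members and 67.9 for the 10063 other genes with FOS, so the members' median rank was the lower. With a −log10 q of at least 10, 16 of 50 members had FOS in both libraries (32%), against 38.8% of other genes.

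The strongest FOS peak of the set in either library again belonged to RAB27B, 20274 bp after its first start and away from the MYRF site, at folds of 14.6 and 16.4. RAB27B held 6 FOS peaks in replicate 1 and 12 in replicate 2. Ordered by the lower of their percentiles in the libraries, RAB13 came next at 12.9 and 12.8, with summits at −205 and −245 bp from the start printed above, and RAB26 at 11.98 and 13.01, at the MYRF site already described. All 3 had MYRF in every library. In replicate 2 alone RAB6A, at 13.6, was above RAB13 and RAB26.

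The next members in rank had no shared MYRF site. RAB40C, which joins a ubiquitin ligase, had folds of 11.2 and 12.8 inside the gene, 2268 bp from its nearer end in replicate 1. RAB5B, an early endosome RAB, had 11.2 and 12.2, but 2183 bp from PMEL and 17661 bp from RAB5B. RAB27A, which moves melanosomes and other granules, had 10.7 and 12.3 inside the gene. Acetylation at the RAB5B peak was listed only in replicate 2 of each clone, while the RAB40C and RAB27A peaks had it in all 4 libraries.

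RAB31 had FOS at folds of 10.5 and 10.9, where HPAF2 had MYRF. RAB6A, a RAB of retrograde Golgi traffic, had 9.98 and 13.6, with a MYRF peak at the same place in CFPAC1 replicate 2. RAB3D, the RAB of zymogen granules, had 7.78 and 11.7, 4906 bp from the gene and without H3K27ac except in MYRFKO replicate 2, and RAB7A 7.38 and 8.59. Most of the strong FOS peaks thus lay away from the gene's start. FOS at a listed start in both libraries was found at 4 members, RAB13, RAB17, RAB30 and RAB34. At RAB17 the start folds were 3.52 and 4.14, at RAB30, a Golgi RAB, 7.65 and 7.30, and at RAB34 5.69 and 4.45.

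Most listed RAB starts were acetylated in both clones, as were most starts of other genes. Of the 44 genes with a listed start, 29 had an H3K27ac peak over the start window in all 4 libraries, 7 in some and 8 in none. Among those of the 44 with H3K27ac in both MYRFWT lists, 29 of 42 (69%) had it in all 4 libraries, against 66.5% of other such genes, and 6 (14.3%) in none, against 22.1%. The 8 were RAB6B, RAB3A, RAB3C, RAB3D, RAB40B, RAB22A, RAB31 and RAB39A, and of these RAB22A had a peak 10 to 42 bp away in every library, RAB31 50 to 187 bp and RAB3A 125 to 224 bp. The 7 were RAB43, RAB3B, RAB21, RAB4A, RAB29, RAB32 and RAB42. At RAB3B the peaks over the start had folds of 5.80 and 5.47 in MYRFKO; MYRFWT replicate 2 had a peak 28 bp from the start window and the nearest in replicate 1 was 14553 bp away. It was the only one of the 7 that split by clone.

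Windows of 3 members lacked H3K27ac in a MYRFWT library and were kept out of the comparison with other genes. RAB39A, a RAB of phagosomes, had 0 peaks in all 4 libraries. RAB3C, a synaptic vesicle RAB, had 1 peak of 0.225 kb in MYRFWT replicate 1 and 0 elsewhere, although FOS was listed there in both libraries at folds of 4.72 and 2.83. RAB12, which sends receptors to lysosomes, had 0 and 0.324 kb covered in MYRFWT and 0.431 and 1.15 kb in MYRFKO. These lists show which places passed the authors' threshold, not that acetylation was absent.

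Coverage of the windows differed little between the clones. Per library the median window of the 51 members held 5.25 and 5.44 kb of H3K27ac in MYRFWT and 5.51 and 5.70 kb in MYRFKO, against 4.47, 4.39, 4.22 and 4.23 kb for other genes. Covered length was scaled to each library's total, and log2(bp + 500) was compared between clones with limma. The median log2 difference, MYRFKO minus MYRFWT, was 0.08 over the members and 0.05 over other genes. Of the members 35 lay above and 16 below 0 (31.4% below, against 39.2% of other genes). Without the scaling to library totals the medians were −0.02 and −0.05, so the sign of a small difference depends on that choice. No member and no other gene (0%) passed an adjusted p of 0.05 in limma with Benjamini-Hochberg adjustment. The unadjusted limma p was under 0.05 for 2 of 51 members, RAB3B and RAB37 (3.92%), and for 810 of 16081 other genes (5.04%), and the smallest adjusted p among members was 0.844. On coverage simulated with normal noise and a spread smoothed over level, limma called 92 of 100 genes changed by 1 on the log2 scale. Changes as small as those of the members, −0.39 to 0.51, were not simulated. The simulation therefore does not show whether such changes would be called. With 2 libraries against 2, an exact two-sided permutation test cannot go below p = 0.333.

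**Figure D4:**
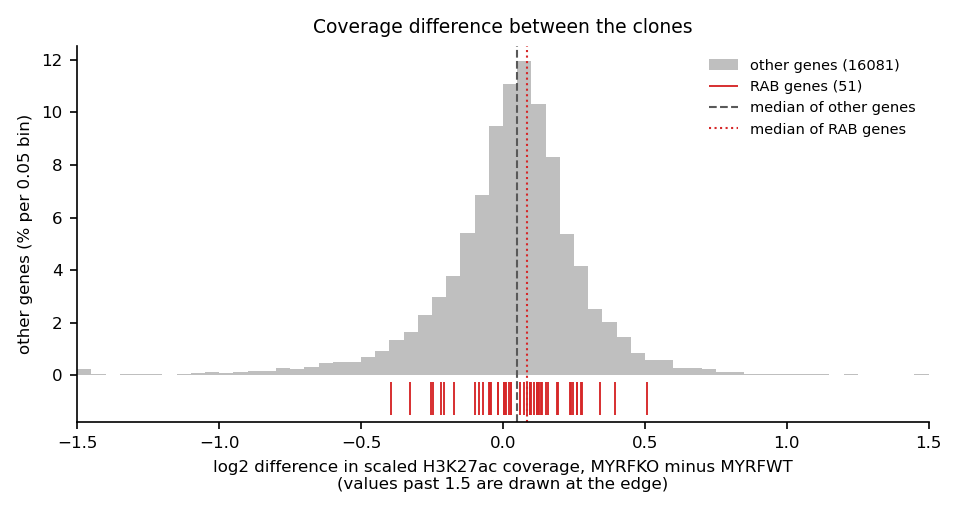
Log2 difference in scaled H3K27ac coverage, MYRFKO minus MYRFWT, as a histogram for the other genes and as red ticks for the 51 RAB genes. The ticks run from −0.39 to 0.51, and the dotted median of the RAB genes, 0.08, lies beside the dashed median of the other genes, 0.05.

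Both MYRFKO libraries lay under both MYRFWT libraries at 6 of 51 members (11.8%), against 11.6% of other genes, and above them at 15 (29.4%), against 21.9%. Without scaling, 15 members lay lower (29.4%, against 25.7%) and 5 higher (9.8%, against 10.6%). Members lower both ways were RAB1A, RAB5A, RAB5B, RAB8B, RAB14 and RAB37, and those higher both ways among the 51 were RAB1B, RAB3B, RAB7A, RAB10 and RAB23. The Golgi genes held 6 of the 15 higher members and the late endosome genes 2, but without scaling only 1 of the 5 higher members, RAB1B, was a Golgi gene. None of these differences passed the test, so the values below describe these 4 libraries.

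RAB3B had the largest difference above 0 in the set. Its window held 5.80 and 6.13 kb in MYRFWT and 8.28 and 7.79 kb in MYRFKO, a log2 difference of 0.51 (SE 0.14) with a limma adjusted p of 0.844. The groups did not overlap, and the difference was 0.43 to 0.59 when 1 library was left out. RAB3B was named because its groups did not overlap, so the kept direction shows no stability. Around the CFPAC1 MYRF site of this gene, H3K27ac within 1 kb covered 0 and 200 bp in MYRFWT and 747 and 293 bp in MYRFKO.

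RAB8B, a RAB of transport to the plasma membrane, had the largest difference below 0, with 25.4 and 16.8 kb in MYRFWT and 15.1 and 13.7 kb in MYRFKO, a log2 difference of −0.39 (SE 0.20). MYRFWT replicate 1 stood far above the other 3 libraries, and without it the difference was −0.14. RAB37 was more even, with 6.89 and 6.81 kb against 4.83 and 5.07 kb. Its log2 difference of −0.33 (SE 0.13) was between −0.36 and −0.30 when a library was left out. RAB37 was named because its clones did not overlap, so the kept direction shows no stability. In MYRFWT replicate 2 and MYRFKO replicate 1 the H3K27ac gap around its MYRF sites was 283464 and 292831 bp. That gap closed 16393 and 16939 bp past the second site, near the gene's end, which lay 16583 bp from the site. CD300LF and NHERF1 also reach into the window, so the difference cannot be given to RAB37. The other 4 members lower both ways were closer to 0. RAB1A, which runs traffic into the Golgi, had 3.88 and 4.23 kb against 2.79 and 3.36 kb, and RAB5B 9.67 and 9.52 kb against 6.82 and 8.34 kb. With windows of 5 kb on each side, the log2 difference of RAB1A went from −0.25 to −0.01. That of RAB5B went from −0.22 to −0.16. CEP68 also reaches into the RAB1A window. RAB14, a RAB between Golgi and endosomes, had log2 −0.08 (SE 0.14) and RAB5A −0.05 (SE 0.13).

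Among members whose clones did not overlap after scaling, the next differences above 0 were RAB38 with 2.22 and 1.46 kb in MYRFWT against 2.19 and 2.31 kb in MYRFKO, RAB42 with 6.43 and 5.22 kb against 7.14 and 6.08 kb, and RAB25, the epithelial recycling RAB, with 4.85 and 5.87 kb against 6.26 and 5.75 kb. These 3 separated only after scaling, since their unscaled values overlapped. With peaks of −log10 q under 10 left out, the log2 difference of RAB38 turned to −1.06 and that of RAB42 to −0.10. RAB10, which brings glucose transporters to the surface, was separated either way, with 11.6 and 11.1 kb against 13.03 and 12.6 kb (log2 0.28, SE 0.13). RAB33B, a Golgi RAB that takes part in autophagy, had 5.07 and 4.43 kb against 4.93 and 5.77 kb, which overlap without scaling.

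**Figure D5:**
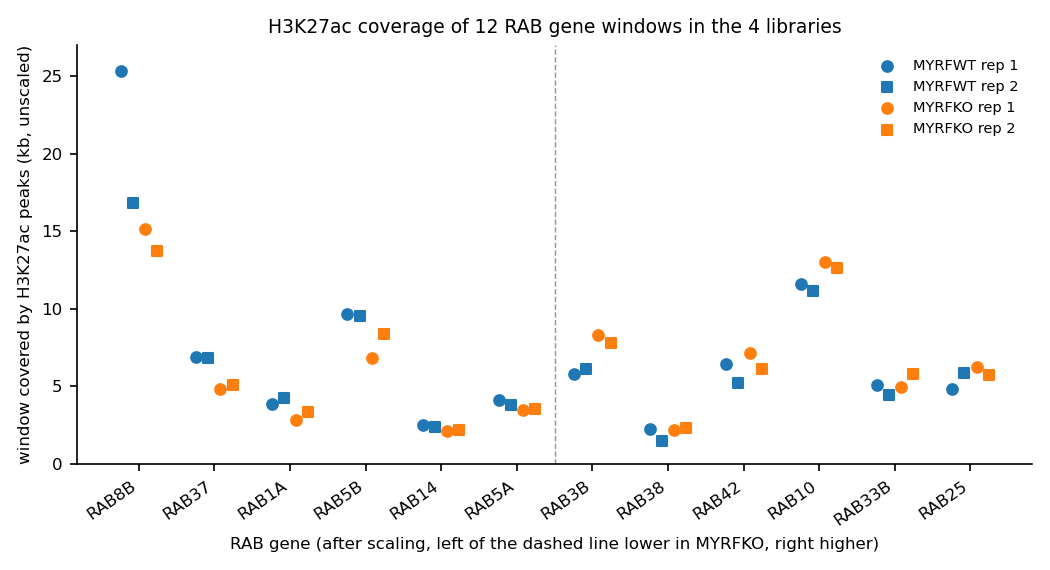
Length of the window covered by H3K27ac peaks (kb, unscaled) in each of the 4 libraries, for the 6 RAB genes with the largest differences below 0 (left) and the 6 with the largest above 0 (right) among those whose clones did not overlap after scaling. RAB8B had 25.4 and 16.8 kb in MYRFWT against 15.1 and 13.7 kb in MYRFKO, and RAB3B 5.80 and 6.13 kb against 8.28 and 7.79 kb.

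H3K27ac regions present in both libraries of 1 clone and in neither of the other were few and weak. A lost region, in MYRFWT only, was found at 6 of 51 members (11.8%), against 17.8% of other genes, and a gained region, in MYRFKO only, at 7 (13.7%), against 11.5%. Together they made up 7 lost and 7 gained regions of 464 in the windows of the 51 members. Counted in the same way per window, other genes had 4236 lost and 2263 gained regions of 139208. No MYRF peak of any library overlapped any of the 14 regions at members. MYRF lists held 3702 to 4743 peaks against 107586 to 116466 for H3K27ac, so most regions of any kind lack MYRF. The share among lost and gained regions of other genes was not computed, and no conclusion is drawn from this. RAB40B, which works with a ubiquitin ligase, had 2 lost regions, and RAB5B, RAB35, RAB24, RAB4A and RAB4B 1 each, all outside the gene span. Only that of RAB4A had its member as the nearest gene. Nearest to the others were WDR45B for RAB40B, SUOX for RAB5B, BICDL1 for RAB35, PRELID1 for RAB24 and EGLN2 for RAB4B. The lost regions had MYRFWT folds of 2.90 to 5.54, and only that of RAB4B, a fast recycling RAB, had FOS in both libraries.

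Gained regions lay at RAB3B, RAB27B, RAB31, RAB25, RAB38, RAB23 (a brake on Hedgehog signalling) and RAB43, which acts between the endoplasmic reticulum and the Golgi. That of RAB25 had folds of 5.76 and 12.8 (chromosome 1, 156076120 to 156077105), above the other 6 in replicate 2 and below the 7.84 of RAB23 in replicate 1. It lay 4600 bp from MEX3A and 6109 bp from RAB25. The RAB3B region lay 12813 bp from TXNDC12 and 16618 bp from RAB3B. The RAB43 region lay 690 bp before that gene's listed start, at folds of 5.01 and 3.08, and the RAB27B region inside the gene, 44807 bp after the first start. Apart from replicate 2 at RAB25, folds of gained regions were 3.08 to 7.84. With peaks of −log10 q under 10 left out, no member had a gained region, against 4.14% of other genes.

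Windows of partner genes of the RAB cycle held some of the strongest MYRF peaks. For these genes it was not examined whether the libraries share a site or which gene lies nearest to it. Of 29 exchange factor genes, 7 had MYRF in both CFPAC1 libraries, 10 in both HPAF2 libraries and 7 in all 4, and 24 had FOS. In the same order, the counts were 7, 7, 5 and 21 of 25 genes of GTPase-activating proteins and 6, 8, 6 and 30 of 39 effector genes, and none of the 8 prenylation and membrane recycling genes had MYRF in both libraries of a line and 3 had FOS. Of other genes, 14.2%, 13.1% and 7.74% had MYRF in these sets of libraries and 62.6% had FOS. A lost H3K27ac region was found at 13 of the 25 genes of GTPase-activating proteins, 3 of 29, 6 of 39 and 0 of 8 in the other lists, against 17.8% of other genes, and these counts were not tested. The median windows were long, at 120.7, 163.6 and 99.5 kb for exchange factors, GTPase-activating proteins and effectors and 49.9 kb for the last, against 68.4 kb for other genes. Coverage differences passed limma's adjusted p for 0 genes of each list.

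Among exchange factors, DENND6B, of a family that loads RAB14, had MYRF folds of 46.5 and 46.1 in CFPAC1 and 41.0 and 44.2 in HPAF2, RIN2, for RAB5, 22.7 to 30.3 over the 4 libraries, and MON1A, for RAB7, 10.6 to 13.4. Among GTPase-activating proteins, TBC1D10B, which acts on RAB35, had 24.6 to 31.8, TBC1D22A 12.9 to 24.2 and TBC1D16, which acts on RAB4A, 11.6 to 15.6. The RAB27 effector UNC13D, which primes granules for release, reached 41.9 to 47.3, the RAB11 motor MYO5B 6.85 to 10.37 and the RAB8 partner OPTN 6.30 to 9.89. The highest of these folds were above those of every RAB gene, of which RAB27B was the highest at 22.1 in HPAF2 replicate 2.

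Neighbouring genes share most of these windows. Another protein-coding gene span reached into the window of 39 of the 54 members, up to 6 at RAB40C, while 15 windows held the member alone, among them those of RAB3B, RAB10, RAB31 and RAB38. No 2 member windows overlapped each other. A peak in a window was therefore near a RAB gene without being known to act on it.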

How the data were processed

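The data were peak lists from 10 chromatin immunoprecipitation libraries, 2 for each of 5 groups. An HPAF2 input sample was not analysed here. Following the labels' protocols, chromatin was fixed with 1% formaldehyde for 10 min and precipitated with 10 µg of antibody. The submitters' processing notes name MACS2 2.1.0.20150731, Bowtie2 2.2.6, Trimmomatic 0.38 and SAMtools, on the GRCh38 build. The control used to call the CFPAC1 peaks is not given in the sources used here. In the deposited lists each peak has a score, a fold enrichment (a ratio to local background, the authors' own value), and a −log10 p and −log10 q, the latter at least 1.30; folds were only ranked within a list.

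Groups came from the sample titles. The RAB genes, the gene lists and the tests were chosen with earlier results of these data known. Genes came from the RefSeq table of GRCh38.p14, matched by symbol. Peaks were given to genes by summit, within 20 kb of the span. Overlap meant at least 1 bp. H3K27ac coverage was scaled to the mean library total, transformed as log2(bp + 500) and fitted with limma 3.58.1 (R 4.3.3; eBayes with trend, two-sided, Benjamini-Hochberg, threshold 0.05), over genes with H3K27ac in both MYRFWT lists. Overlapping H3K27ac peaks from any of the 4 libraries made 1 region; a lost region was present in both MYRFWT and neither MYRFKO list, a gained one the reverse. Named genes were members with MYRF in both libraries of a line, the 10 with the highest FOS percentile, the 6 largest coverage differences each way among those whose clones did not overlap, and those with lost, gained or missing H3K27ac; others named were chosen after their values were seen. Alternatives covered the window, the −log10 q, the pseudocount, the scaling, the replicate block and leaving out each library. Python 3.11.15 with pandas 2.3.3 was used; 540 summit counts were checked against bedtools 2.31.1 and 0 differed. The limma fit was tested on simulated data, where 11 of the unchanged genes were called.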

Additional observations from a re-analysis of the deposited data

How the results depend on the processing

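The 12 members named for coverage were chosen because their clones did not overlap, so keeping their direction without a library shows no stability; 0 were called in any setting. With a −log10 q of at least 10, RAB5A stood at 0.000397, RAB38 at −1.06 and RAB42 at −0.10 on the log2 scale. The count of genes called by limma was 0 in all settings except without MYRFKO replicate 1, where it was 2 with 0 members; leaving out each library gave 0 to 2. Members with MYRF in CFPAC1 numbered 15 with 50 kb windows, 2 with a −log10 q of at least 10 and 8 to 11 from 1 library (against 18% and 19.8% of other genes), and in HPAF2 22, 2 and 9 to 13 (16.1% and 18.4%). Members with FOS numbered 16 with the stricter q (32%, against 38.8% of other genes). Lost regions were found at 1 member with 5 kb windows (2.0%, against 13.9% of other genes) and at 5 with the stricter q (10%, against 12%). Gained regions were found at 3 members with 5 kb windows (6%, against 8.21%) and at 0 with the stricter q (against 4.14%). Leaving out 1 library, which eases the rule, gave 12 to 25 members with lost (against 32.4 to 44.3% of other genes) and 15 to 26 with gained regions (21.5 to 40.2%).

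The replicate numbers do not pair the samples: same-numbered libraries deviated with a correlation of −0.17 over 16132 genes. The fit with a replicate block called 0 genes, and so did the block with crossed pairing, which was added after the data were seen. With 2 libraries per group no outlier could be tested. Depth is unknown, so a missing peak means only that none passed the authors' threshold.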
